A study of Sus scrofa with 24 samples.

Results

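The adipose tissue of piglets whose mothers ate the higher dose of vitamin E, given alone, was compared with that of piglets from the basal diet. All 12 libraries of the VE and C diets were used, of 24 in the series, and they were chosen by the diet letters in the sample names. VE sows received feed with 100 mg of added vitamin E per kg and no hydroxytyrosol (6 libraries), and C sows feed with 30 mg per kg and no hydroxytyrosol (6 libraries). Each library was made from dorsal subcutaneous fat of a male Iberian piglet from a separate litter, taken at 33 days of age, 5 days after weaning. The other libraries came from the VEHT (100 mg vitamin E per kg) and HT (30 mg per kg) diets, both with 1.5 mg of hydroxytyrosol, an olive phenol, per kg (6 libraries each). They are used below only to set the same vitamin E doses side by side in the presence of hydroxytyrosol. The piglets were never fed the diets themselves, and the study describes effects of the feed as indirect, through placenta, colostrum and milk. Other sources of a difference between the groups, such as the litter, were not tested. Both groups received vitamin E. According to the study's feed analysis the diets lay nearer to each other in total vitamin E than the added doses do.

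Alpha-tocopherol, the main form of vitamin E, is a fat-soluble antioxidant that ends lipid peroxidation chains in membranes, and adipose tissue is its largest store. Fat of a young piglet is a tissue under construction. Adipocytes fill with triacylglycerol made from milk lipid and from new fatty acids, while stromal cells lay down a collagen network around them. Genes are described below by these roles, followed by genes outside them.

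Gene counts summed to between 47536268 and 61919211 reads in VE libraries (median 50838938) and to between 36614639 and 57119619 in C libraries (median 44751430.5). The 10 adipocyte markers, among them ADIPOQ, PLIN1 and LIPE, were present in every library, with a summed level of 12410 to 25090 CPM (counts scaled to library size) in VE and 2618 to 20330 CPM in C. No member of the list was at 0 in either group. A pair of C animals, G041 and G047, stood apart from the other libraries. Summed T cell markers read 40.1 to 80.5 CPM in VE, 803.3 and 580.0 CPM in these 2 C animals and 43.3 to 94.7 CPM in the other 4 C animals. The adipocyte markers of the pair, at 2618 and 3089 CPM, were the lowest of the 12. In bulk tissue, fewer cells of a type and less RNA per cell cannot be told apart. Values without these 2 animals are therefore given beside the gene lists described.

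Over all genes, edgeR's quasi-likelihood test with Benjamini-Hochberg adjustment called 0 of 17532 genes at an adjusted p of at most 0.1 and a fold change of at least 1.5 (0%), and the smallest adjusted p was 0.113, for PSPH and JAKMIP2. By the unadjusted p of edgeR, 585 genes read higher in VE at the 0.05 level (3.34%) and 1538 read lower (8.77%). In 55 genes every VE library lay above every C library (0.314%), and in 48 every VE library lay below (0.274%). DESeq2 at the same thresholds called 165 genes higher (0.941%) and 713 lower (4.07%) in VE, 878 in all (5.01%). Without the C animals G041 and G047, edgeR gave 570 genes higher (3.22%) and 767 lower (4.33%) at the unadjusted level, and DESeq2 called 81 higher (0.458%) and 72 lower (0.407%). DESeq2's count was 80 without G041 alone and 96 without G047 alone. Since edgeR called nothing, genes are described below as reading higher or lower, and a call by DESeq2 is named as such. The edgeR adjusted p of the other genes named with values lay between 0.31 and 0.86. An adjusted p beside a gene below is that of DESeq2 with all 12 libraries, except where edgeR is named.

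The higher and lower genes differed in what they were. Of the 165 genes that DESeq2 called higher in VE, 19 were on the lists of lipid metabolism, 14 on those of the extracellular matrix and 1 on the immune lists (0.606%). Over all 17532 genes, 171 were on lipid lists, 165 on matrix lists and 220 on immune lists (1.25%). Of the 713 called lower, 73 were on the immune lists (10.2%). Markers of immune cells, such as T cells, were counted on the cell type lists instead, beside those of adipocytes, muscle and other cells. The cell type lists held 56 of the 713 and 230 of all genes. Most called genes were on none of the 74 lists, 105 of the higher (63.6%) and 549 of the lower (77%), against 90.7% of all genes. All 165 higher genes had the same sign without G041 and G047, where their median log2 fold change was 0.94, against 1.19 with them. Among 709 lower genes with a value, 505 kept their sign and the median came to -0.35 without these animals, against -2.61 with them. The same libraries enter both values, so this agreement is a description of the weight of 2 animals.

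Serine synthesis held the gene with the smallest edgeR p among those with a mean of at least 0.5 CPM. PSPH, phosphoserine phosphatase, catalyses the last step from glycolysis to serine. Its level was 17.0, 19.2, 30.4, 31.4, 33.8 and 35.3 CPM in the VE animals, against 3.21, 6.99, 7.15, 8.40, 8.51 and 9.74 CPM in the C animals. The groups did not overlap. The log2 fold change was 1.92 ± 0.28 (SE, n = 6 each; edgeR adjusted p = 0.113, DESeq2 adjusted p = 1.05e-07), and 1.73 without G041 and G047. PHGDH, which opens the same pathway, ranged over 21.7 to 39.7 CPM in VE (median 23.1) and 3.99 to 20.2 CPM in C (median 7.73), again without overlap, with a log2 fold change of 1.50 ± 0.35 (DESeq2 adjusted p = 0.00447). PSAT1, the enzyme between them, had a higher median in VE (50.3 CPM) than in C (20.1 CPM), but its highest C animal, at 75.9 CPM, exceeded the highest VE animal, at 73.4 CPM (DESeq2 adjusted p = 0.277). DAO, which oxidises D-amino acids such as D-serine, was scarce, with 0.058 to 6.18 CPM in VE and 0 to 0.124 CPM in C. DESeq2 called PSPH, PHGDH and DAO higher in VE. Over the whole list of serine, one-carbon and amino acid synthesis, 17 of 29 tested genes had a positive and 12 a negative log2 fold change, with a median of 0.05, against -0.03 over all genes. Against 3.34% higher and 8.77% lower over all genes, 4 of the 29 read higher and 1 lower by edgeR's unadjusted p. Without G041 and G047, 7 read higher and 0 lower, against 3.22% and 4.33% of all genes. Among those 7 were SHMT2, a mitochondrial enzyme that passes the carbon of serine to folate (log2 fold change 0.56 without the 2 animals), and PYCR1, the last step to proline (0.99).

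Genes of fatty acid synthesis read higher in VE, with a few large differences. Of 15 tested enzymes of fatty acid synthesis, 11 had a positive log2 fold change, 6 read higher and 0 lower by edgeR's unadjusted p, and DESeq2 called 5 higher, with a median of 0.27. Without G041 and G047, 5 read higher and 0 lower, DESeq2 called 2, and the median was 0.53. Of all genes, 3.34% read higher and 8.77% lower, and 3.22% and 4.33% without these animals. SCD, stearoyl-CoA desaturase, turns saturated into monounsaturated fatty acids. It spanned 153 to 2468 CPM in VE (median 667) and 35.1 to 220 CPM in C (median 82.5). The lowest VE animal lay below the highest C animal, and the other 5 VE animals lay above all C animals. The log2 fold change was 3.20 ± 0.63 (DESeq2 adjusted p = 2.63e-05) and 3.07 without G041 and G047. ELOVL6, which lengthens palmitate, lay at 300 to 571 CPM in VE (median 414) and at 33.9 to 294 CPM in C (median 156), with no overlap and a log2 fold change of 1.53 ± 0.44 (DESeq2 adjusted p = 0.0257). ME1, the malic enzyme that supplies NADPH, had 33.8 to 66.7 CPM in VE and 8.70 to 28.6 CPM in C, also without overlap (log2 fold change 1.34 ± 0.31). ACACA, the enzyme of the committed step, had medians of 86.2 CPM in VE and 57.3 CPM in C (log2 fold change 0.90 ± 0.27, DESeq2 adjusted p = 0.0575). Its log2 fold change was 0.57 without VE animal G127. FASN, fatty acid synthase, also rested in part on G127, which read 2719 CPM among VE animals with a median of 403 CPM. The log2 fold change of FASN was 1.51 ± 0.60 with G127 and 0.55 without it. THRSP, the Spot 14 protein tied to lipogenesis, spanned 451 to 1144 CPM in VE and 50.4 to 430 CPM in C without overlap (log2 fold change 2.03 ± 0.50, DESeq2 adjusted p = 0.00415). SREBF1, the transcription factor of this pathway, had medians of 243 CPM in VE and 108 CPM in C (log2 fold change 0.97 ± 0.27, DESeq2 adjusted p = 0.0251).

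SCD and ELOVL6 were the desaturase and the elongase that DESeq2 called higher, and the 250 bases upstream of their RefSeq gene starts (build Sscrofa11.1) are shown because both hold the CCAAT box, a promoter element bound by the factor NF-Y. The sequences run 5′ to 3′ on the strand of the gene, at chr14:111461310-111461559 (plus strand) for SCD and chr8:112038420-112038669 (plus strand) for ELOVL6. Capitals mark each CCAAT or, where the box lies on the other strand, ATTGG.
SCD: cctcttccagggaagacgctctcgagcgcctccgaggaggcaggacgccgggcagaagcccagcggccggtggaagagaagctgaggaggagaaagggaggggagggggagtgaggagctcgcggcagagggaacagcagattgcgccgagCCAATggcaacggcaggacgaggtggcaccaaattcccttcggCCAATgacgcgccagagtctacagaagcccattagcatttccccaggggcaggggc
ELOVL6: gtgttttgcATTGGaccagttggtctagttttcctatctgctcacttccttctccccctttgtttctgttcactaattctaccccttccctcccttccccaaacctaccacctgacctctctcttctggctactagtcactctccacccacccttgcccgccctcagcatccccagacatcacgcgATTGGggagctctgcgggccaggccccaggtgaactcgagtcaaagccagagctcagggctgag
Each window held 2 CCAAT boxes and no match to TCACNCCAC, the only form of the sterol regulatory element searched, on both strands. Other forms of that element were not searched, so their presence in these windows is not known. Over 19506 upstream windows of the same length, 31.9% held CCAAT and 0.805% held TCACNCCAC. The shares were 46.7% of 15 windows for fatty acid synthesis, 64.7% of 17 for desaturases and elongases, 25% of 16 for triacylglycerol synthesis, 23.1% of 13 for lipogenic regulators and 85% of 20 for cholesterol genes. A match describes the letters of the window and is no evidence of binding.

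Among genes that assemble and store lipid, single genes separated the groups while their lists held few. Of 17 genes of triacylglycerol synthesis, 4 read higher and 0 lower by edgeR's unadjusted p (median 0.15), and 2 read higher and 1 lower without G041 and G047 (median 0.14). Lipolysis and droplet proteins had 3 higher and 2 lower of 22, fatty acid uptake 2 higher and 1 lower of 20, and phospholipid synthesis 2 higher and 2 lower of 22, with medians of 0.36, 0.16 and -0.08. Without the 2 animals these medians were 0.05, 0.05 and -0.06. Beside these counts, 3.34% of all genes read higher and 8.77% lower, and 3.22% and 4.33% without the 2 animals. DGAT2, which adds the last fatty acid to triacylglycerol, lay at 420 to 613 CPM in VE (median 550) and at 80.1 to 333 CPM in C (median 210), with no overlap and a log2 fold change of 1.34 ± 0.28 (DESeq2 adjusted p = 0.00115). PCYT2, of phosphatidylethanolamine synthesis, had 44.9 to 69.3 CPM in VE and 28.2 to 39.7 CPM in C without overlap, a smaller difference of 0.72 ± 0.14 on the log2 scale (DESeq2 adjusted p = 0.000375). LPL, the lipase that releases fatty acids from circulating lipoproteins, ranged over 1549 to 3203 CPM in VE and 323 to 1444 CPM in C, again separated (log2 fold change 1.25 ± 0.36). LEP, leptin, had medians of 60.7 CPM in VE and 12.01 CPM in C, and CIDEC, which enlarges lipid droplets, 506 CPM in VE and 169 CPM in C. Both overlapped between groups, and DESeq2 called both higher. LPL and CIDEC are themselves adipocyte markers, and some other adipocyte markers had smaller differences. ADIPOQ, adiponectin, had medians of 6788 CPM in VE and 3705 CPM in C (log2 fold change 0.76 ± 0.53, DESeq2 adjusted p = 0.518), and PLIN1, the droplet coat protein, 781 CPM in VE and 464 CPM in C (0.61 ± 0.54, DESeq2 adjusted p = 0.669). Of the 10 adipocyte markers, 3 read higher and 0 lower by edgeR's unadjusted p, both with and without G041 and G047. DESeq2 called 3 of them higher with all libraries and 1 without these animals. The median over the 10 adipocyte markers was 0.63 on the log2 scale and 0.16 without G041 and G047. Over the same 10 libraries SCD (3.07), THRSP (1.58), ELOVL6 (1.097), DGAT2 (1.09), ME1 (1.02) and LPL (0.94) kept log2 fold changes near or above 1, while LIPE, the hormone-sensitive lipase, read -0.12, against 0.33 with all animals. The part of adipocyte content in these differences was not tested beyond these values.

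Cholesterol genes read higher in larger number once C animals G041 and G047 were set aside. Of 23 tested genes, 2 read higher and 0 lower with all 12 libraries (median log2 fold change 0.21). Without G041 and G047, 14 read higher and 0 lower (median 0.64, against 0.02 over all genes). The share of all genes that read higher was 3.34%, and 3.22% without these animals. LSS, lanosterol synthase, spanned 93.5 to 143 CPM in VE (median 120) and 41.2 to 99.4 CPM in C (median 61.3), with a log2 fold change of 0.90 ± 0.21 (DESeq2 adjusted p = 0.00653). SC5D, which acts late in the same route, had medians of 44.5 CPM in VE and 23.1 CPM in C (0.93 ± 0.23, DESeq2 adjusted p = 0.0175). IDI1, an isomerase early in the route, moved mostly with G047. Its VE animals spanned 33.0 to 61.9 CPM. The highest C value was 78.5 CPM with the 2 animals and 29.2 CPM, below every VE animal, without them. The log2 fold change of IDI1 was 0.45 with them and 1.07 without them. With single animals left out it was 0.44 without G041 and 0.95 without G047. The median of the cholesterol list was 0.52 without G047 alone. ABCA1, the pump that exports cholesterol, and in other species tocopherol, read lower in VE, with medians of 19.6 CPM in VE and 37.6 CPM in C (-0.88 ± 0.33, DESeq2 adjusted p = 0.132) and -1.102 without the 2 animals.

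**Figure D1:**
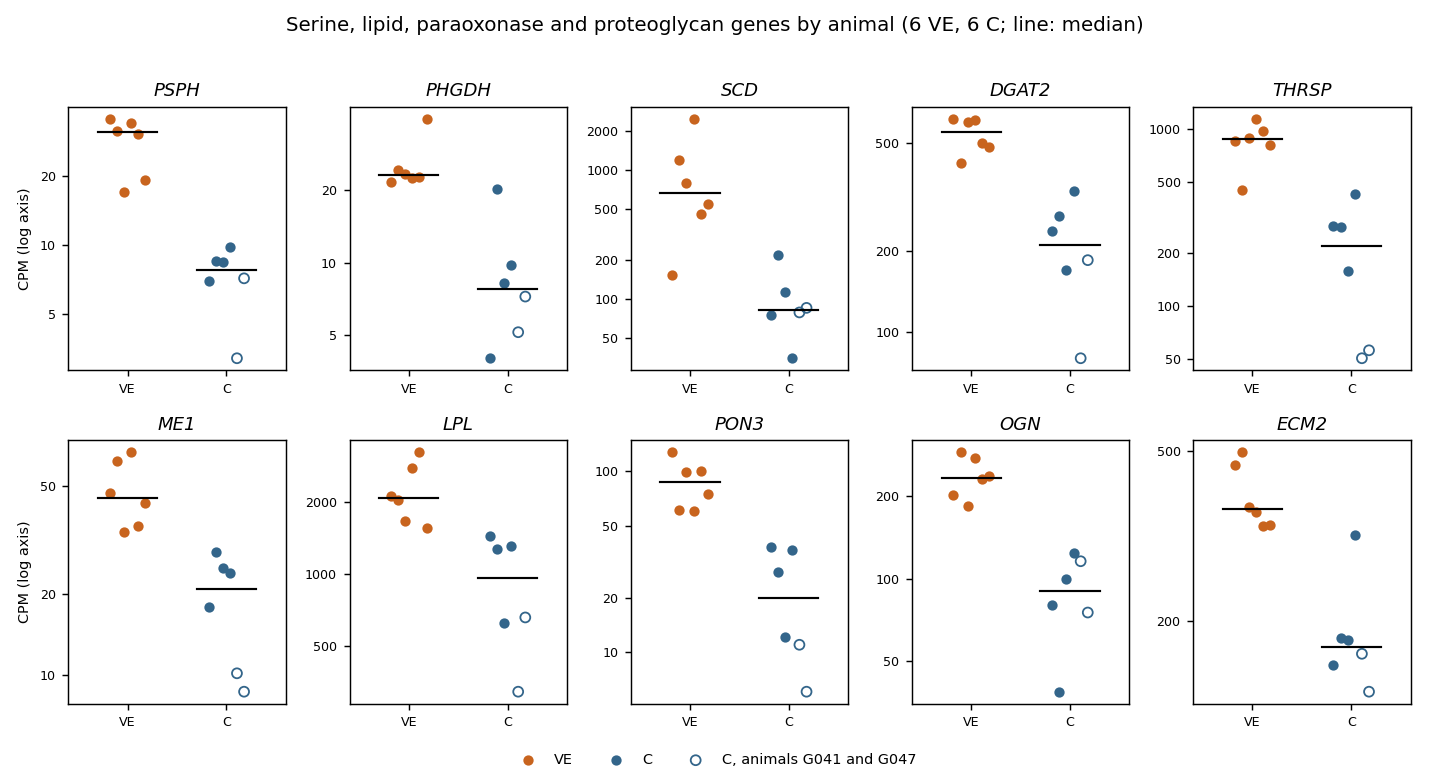
Level of 10 genes in each animal (CPM on a log axis), VE at the left and C at the right of each panel, with a line at the median and open circles for the C animals G041 and G047. In 9 of the 10 panels, all but SCD, every VE animal lies above every C animal. The genes were chosen with earlier results of these data known, and over all genes 0.314% were so separated.

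Lists of structural matrix genes, though not matrix proteases, read higher in VE, some of them less so without G041 and G047. Of 21 basement membrane genes, 5 read higher and 0 lower (median 0.41), and DESeq2 called 3 higher. Without G041 and G047, 3 read higher and 2 lower (median 0.08), and DESeq2 called 0. Of 32 genes of elastic fibres and adhesive glycoproteins, 4 read higher and 1 lower (median 0.51). Without the 2 animals, 2 read higher and 0 lower (median 0.28). Of 26 matrix proteases and their inhibitors, 1 read higher and 4 lower (median -0.12), and 2 read higher and 1 lower without G041 and G047 (median -0.06). Over all genes 3.34% read higher and 8.77% lower, and 3.22% and 4.33% without these animals. Of 28 tested fibrillar and associated collagens, 22 had a positive log2 fold change, with a median of 0.65. By edgeR's unadjusted p, 9 read higher and 0 lower. Without G041 and G047 the median was 0.46, and 3 read higher and 1 lower. DESeq2 called 3 collagens higher with all 12 libraries and 0 without these animals. COL1A2, a chain of type I collagen, had medians of 8617 CPM in VE and 4133 CPM in C (log2 fold change 1.06 ± 0.39, DESeq2 adjusted p = 0.078) and was called by DESeq2. COL1A1 and COL3A1 lay at 12858 and 16515 CPM in the median VE animal, against 6481 and 7841 CPM in the median C animal, and were not called by DESeq2. In all 3 genes the lowest C animal was G025, not G041 or G047. COL15A1, a collagen of basement membrane zones, had 530 to 799 CPM in VE and 107 to 614 CPM in C (1.19 ± 0.37, DESeq2 adjusted p = 0.0465). Genes of collagen processing were similar, with 20 of 24 positive, 6 higher and 0 lower by edgeR's unadjusted p, and a median of 0.50 that was 0.49 without G041 and G047. PCOLCE, which speeds the trimming of procollagen, spanned 529 to 867 CPM in VE and 201 to 477 CPM in C without overlap (0.82 ± 0.21, DESeq2 adjusted p = 0.0089). SERPINH1, the collagen chaperone HSP47, and P3H4, a partner of the prolyl hydroxylases, were also called higher by DESeq2, with log2 fold changes of 0.62 and 0.79.

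Small leucine-rich proteoglycans, which bind collagen fibrils and set their width, held the matrix gene with the smallest p. OGN, osteoglycin, lay at 185 to 289 CPM in VE (median 234) and at 38.7 to 125 CPM in C (median 90.1), with no overlap and a log2 fold change of 1.41 ± 0.25 (DESeq2 adjusted p = 7.41e-05), and 1.46 without G041 and G047. ECM2, its neighbour on chromosome 3, ranged over 333 to 496 CPM in VE and 137 to 319 CPM in C, separated as well (1.04 ± 0.21, DESeq2 adjusted p = 0.00054). ASPN, asporin, of the same gene cluster, read 216 CPM in the median VE and 83.0 CPM in the median C animal (1.29 ± 0.49, DESeq2 adjusted p = 0.124). Whether the 3 neighbours share reads was not tested. In all, 15 of 18 members were positive, 7 read higher and 0 lower, and the median was 0.62. Without the 2 animals, 5 read higher and 0 lower, with a median of 0.49. Among all genes 3.34% read higher and 8.77% lower, and 3.22% and 4.33% without the 2 animals. DPT, dermatopontin, had medians of 431 CPM in VE and 147 CPM in C (1.26 ± 0.42). MGP, an inhibitor of mineral deposition, had medians of 478 CPM in VE and 310 CPM in C (0.83 ± 0.24, DESeq2 adjusted p = 0.0271). Genes of tendon, fascia and cartilage had a median of 0.79 over 23 tested genes, 21 of them positive, with 6 higher and 1 lower, and DESeq2 called 3 higher. Without the 2 animals the median was 0.82, with 3 higher and 0 lower, and DESeq2 called 0. SCX, the transcription factor of tendon cells, was scarce, with medians of 1.74 CPM in VE and 0.449 CPM in C (1.80 ± 0.59), and TNMD, tenomodulin, ran between 0.097 and 51.9 CPM in VE and between 0 and 6.99 CPM in C. Beside these values, the summed level of 18 skeletal muscle markers was 27.5 to 41810 CPM in VE (median 4643) and 36.4 to 46330 CPM in C (median 584.5), and that of 15 stromal progenitor markers 2920 to 7431 CPM in VE (median 5534) and 1867 to 5412 CPM in C (median 3850). No member of either list was at 0 throughout a group, and the part of muscle, fascia or stromal content in the matrix values was not tested.

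Retinoid genes and a list of superoxide, peroxide and glutathione enzymes also held genes that read higher in VE, and genes of vitamin E handling few. The 15 genes of vitamin E uptake, binding and breakdown held 1 that read higher and 1 that read lower, with a median of -0.09, and 1 higher and 2 lower with a median of 0.07 without G041 and G047. Of 25 retinoid genes, 7 read higher and 2 lower with a median of 0.20, and 3 higher and 1 lower with a median of 0.24 without these animals. For all genes the shares were 3.34% higher and 8.77% lower, and 3.22% and 4.33% without these animals. RDH5, a retinol dehydrogenase, had medians of 17.9 CPM in VE and 4.32 CPM in C (log2 fold change 2.05 ± 0.49, DESeq2 adjusted p = 0.00344). RBP4, the retinol carrier that fat secretes, lay at 114 to 259 CPM in VE and 15.8 to 134 CPM in C (1.50 ± 0.47). DESeq2 called both higher. STRA6, the receptor for RBP4, read lower (-3.18 ± 1.08) only through G041 and G047, without which it was 0.15. Among enzymes that act on superoxide, peroxide and glutathione, 6 of 25 read higher and 1 lower (median 0.36), and 3 higher and 0 lower without the 2 animals (median 0.19). A separate list held 28 genes of thioredoxins, peroxiredoxins, which also remove peroxide, and targets of the transcription factor NRF2. Of these, 0 read higher and 0 lower (median -0.02), and 2 higher and 0 lower without the 2 animals (median 0.16). GPX8, a glutathione peroxidase family member of the endoplasmic reticulum, spanned 37.6 to 75.7 CPM in VE and 27.1 to 42.6 CPM in C (0.69 ± 0.19, DESeq2 adjusted p = 0.027). GPX4, which reduces lipid hydroperoxides in membranes, had medians of 397 CPM in VE and 216 CPM in C (0.59 ± 0.21, DESeq2 adjusted p = 0.0942). GPX1 read lower (-0.97 ± 0.44, DESeq2 adjusted p = 0.25), with -0.08 without the 2 animals. PON3, a paraoxonase carried on lipoproteins, lay at 60.4 to 126.9 CPM in VE (median 86.6) and at 6.04 to 38.3 CPM in C (median 19.98), with no overlap and a log2 fold change of 1.98 ± 0.43 (DESeq2 adjusted p = 0.00134).

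Several genes outside lipid and immune lists were among those with the smallest p. NGFR, the p75 neurotrophin receptor, had medians of 95.4 CPM in VE and 17.9 CPM in C (log2 fold change 2.17 ± 0.55, DESeq2 adjusted p = 0.00552). WNT5A and WNT5B, secreted ligands of the non-canonical Wnt route, had medians of 8.87 and 23.0 CPM in VE, against 4.46 and 9.49 CPM in C, and WNT5A was separated between groups (1.04 ± 0.22, DESeq2 adjusted p = 0.00054). MEGF6, a protein with EGF repeats, had 7.04 to 15.7 CPM in VE and 1.42 to 5.05 CPM in C without overlap (1.75 ± 0.34, DESeq2 adjusted p = 0.000112). JAZF1, a zinc finger cofactor, had 46.7 to 63.4 CPM in VE and 10.5 to 37.9 CPM in C (1.11 ± 0.27). GBE1, the glycogen branching enzyme, had 116.6 to 170 CPM in VE and 62.2 to 109 CPM in C (0.72 ± 0.16), and PIK3R1, a regulatory subunit of phosphoinositide 3-kinase, 154 to 258 CPM in VE and 81.7 to 152 CPM in C (0.70 ± 0.18). None of these 3 overlapped. CYP2A19, a porcine cytochrome P450 of the CYP2A family, spanned 7.04 to 65.8 CPM in VE and 0.376 to 11.13 CPM in C (2.72 ± 0.66, DESeq2 adjusted p = 0.00214). DESeq2 called all of these genes higher in VE. Without G041 and G047 each stayed positive, between 0.56 (PIK3R1) and 2.57 (CYP2A19) on the log2 scale.

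Of the 48 genes with every VE animal below every C animal, 0 were on an immune list and 43 on no list (89.6%), shares near those of all genes (1.25% and 90.7%). Among the rest was FLT3, a receptor on the list of dendritic cell markers, which was counted with the cell type lists. FLT3 had 0 to 0.136 CPM in VE and 0.159 to 4.89 CPM in C. The median log2 fold change of the 48 was -0.59, and several of the more abundant genes had smaller differences than FLT3. NOTCH1, a receptor of cell fate decisions, lay at 42.2 to 57.4 CPM in VE (median 46.3) and at 63.3 to 80.9 CPM in C (median 70.9), a log2 fold change of -0.54 ± 0.11 (DESeq2 adjusted p = 0.000149), which is below the fold threshold. MYH9, the heavy chain of non-muscle myosin IIA, had 283 to 395 CPM in VE and 440 to 643 CPM in C (-0.65 ± 0.14, DESeq2 adjusted p = 2.37e-05). DIAPH1, a formin that builds actin filaments, had 13.6 to 32.2 CPM in VE and 34.8 to 46.6 CPM in C (-0.76 ± 0.18). KSR1, a scaffold of the Ras to MAP kinase cascade, had 9.15 to 12.6 CPM in VE and 14.0 to 21.3 CPM in C (-0.65 ± 0.15). IGF2R, which clears insulin-like growth factor 2, had 98.7 to 130 CPM in VE and 142 to 220 CPM in C (-0.58 ± 0.14). These 5 genes were taken from the 48, so their separation was fixed by that choice. Without G041 and G047 their log2 fold changes lay between -0.42 (IGF2R) and -0.75 (DIAPH1). The growth factor receptors IGF1R and INSR read -0.80 and -0.74 in the 10 libraries without these animals, and -0.58 and -0.30 in all 12. Over 23 Notch pathway genes, 0 read higher and 3 lower, with a median of 0.05, and 0 higher and 4 lower with a median of -0.20 without the 2 animals. The share of all genes that read lower was 8.77%, and 4.33% without the 2 animals. Of 16 markers of endothelial cells, 0 read higher and 0 lower (median -0.05). Without the 2 animals, 0 of these markers read higher and 6 lower (median -0.35). The part of endothelial content in the lower genes was not tested.

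Chromatin genes and immediate early genes leaned the same way. Of 42 modifiers of DNA methylation and chromatin, 31 had a negative log2 fold change, with a median of -0.13. By edgeR's unadjusted p, 0 read higher and 11 lower, and 1 read higher and 10 lower without G041 and G047. Over all genes 8.77% read lower, with a median of -0.03, and 4.33% without these animals, with a median of 0.02. TET3, which oxidises methylated cytosine, had medians of 1.69 CPM in VE and 4.73 CPM in C (-1.44 ± 0.35, DESeq2 adjusted p = 0.00346). EP300, a histone acetyltransferase, had medians of 46.1 CPM in VE and 64.6 CPM in C (-0.41 ± 0.14). These genes have long transcripts, with a median RefSeq mRNA of 5876 bases, against 3575 bases over 12720 tested genes with a length. When genes were divided by mRNA length into 5 classes of 2544 genes, the median log2 fold change was 0.03 in the class of the shortest and -0.10 in that of the longest mRNAs, and 0.11 and -0.12 in the same classes without G041 and G047. The part of transcript length in the chromatin and cytoskeleton values was not tested. Of 33 immediate early genes, which respond within minutes to a stimulus, 8 read lower and 1 higher (median -0.32), and DESeq2 called 6 lower. Without the 2 animals 4 read lower and 0 higher (median -0.25), and DESeq2 called 0. NR4A3, a nuclear receptor of that class, had medians of 3.07 CPM in VE and 5.86 CPM in C (-1.03 ± 0.34, DESeq2 adjusted p = 0.0595) and -1.20 without the 2 animals. EGR2 and JUNB read -3.21 and -1.69 with all C animals, and -0.52 and -0.32 without G041 and G047. The low-abundance transcription factor genes CREB3L3 (0.268 to 0.651 CPM in VE, 0.913 to 1.96 CPM in C) and CUX2 (0.640 to 1.48 CPM in VE, 1.51 to 8.54 CPM in C) were separated in all animals, with log2 fold changes of -1.52 ± 0.33 and -2.15 ± 0.46.

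**Figure D2:**
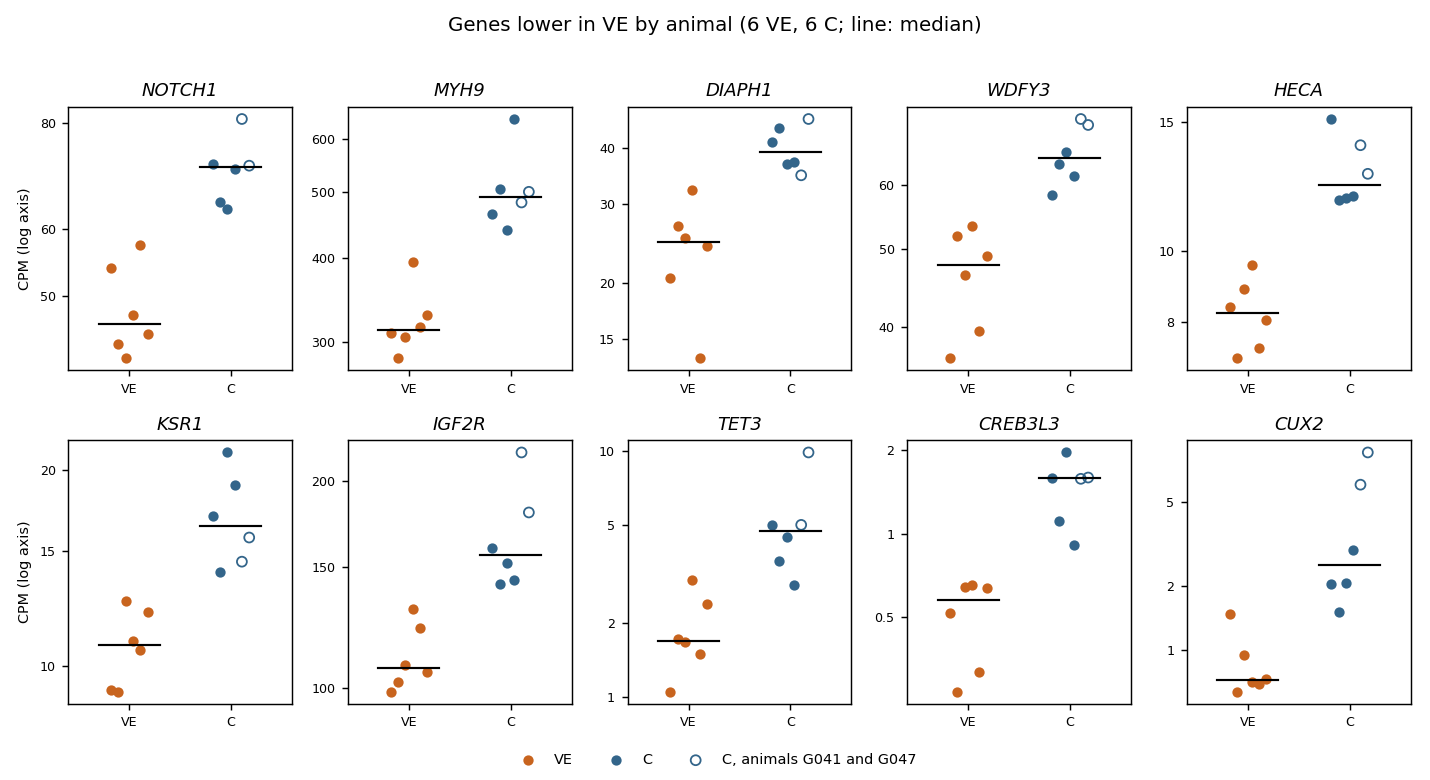
Level of 10 genes that read lower in VE in each animal (CPM on a log axis), VE at the left and C at the right of each panel, with a line at the median and open circles for the C animals G041 and G047. In 9 of the 10 panels, all but TET3, every VE animal lies below every C animal. The genes were chosen with earlier results of these data known, and over all genes 0.274% were so separated. The open circles stand furthest above the other C animals for CUX2.

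Immune genes were the largest differences and rested mostly on the same 2 C animals. Median log2 fold changes were -3.20 over 23 T cell markers, -2.23 over 10 genes of MHC class II presentation, -1.998 over 22 chemokines and -1.08 over 27 genes of NF-kB and the inflammasome, with 0 genes of these lists higher by edgeR's unadjusted p and 19, 8, 12 and 19 lower. Without G041 and G047 the medians were -0.38, -0.29, -0.01 and -0.06, with 0, 0, 0 and 2 genes lower and 0, 0, 1 and 0 higher. CCL22, a chemokine of dendritic cells and macrophages, is an example: it had 0 to 0.268 CPM in VE and 0.099 to 75.5 CPM in C, and the highest C animal other than these 2 had 1.07 CPM. Genes that make superoxide and nitric oxide had a median of -1.36 over 21 tested, with 0 higher and 9 lower. Without the 2 animals the median of these 21 was -0.35, with 0 higher and 3 lower. The shares over all genes were 3.34% higher and 8.77% lower, and 3.22% and 4.33% without the 2 animals. PLA2G2F, a secreted phospholipase, had 0 counts in all VE libraries, so its fitted fold change is no measure of size. HPS5, a subunit of a lysosome biogenesis complex, spanned 0.274 to 9.57 CPM in VE and 4.00 to 5048 CPM in C, with 39.1 CPM the highest of the other 4 C animals, and a log2 fold change of -8.92 with and -2.54 without G041 and G047. Its RefSeq neighbour on chromosome 2 is SAA2, a serum amyloid gene, and whether reads of that gene were counted in HPS5 was not tested.

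Several lists of core energy and protein synthesis genes held no gene past the unadjusted level. They held 49 nuclear genes of oxidative phosphorylation, 38 cytosolic ribosomal proteins, 25 genes of mitochondrial fatty acid oxidation, 19 of the citric acid cycle and 13 selenoproteins. In each list 0 read higher and 0 lower at the unadjusted 0.05 level of edgeR, and DESeq2 called 0. Median log2 fold changes were 0.06 for oxidative phosphorylation, 0.08 for ribosomal proteins, 0.01 for fatty acid oxidation and 0.04 for the selenoprotein list. GPX4, a selenoprotein that read higher in VE as given above, was not among these 13. The median for fatty acid oxidation was -0.24 without G041 and G047. Glycolysis and pyruvate genes held 1 higher and 1 lower of 28, with a median of -0.14 (0.07 without these animals).

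**Figure D3:**
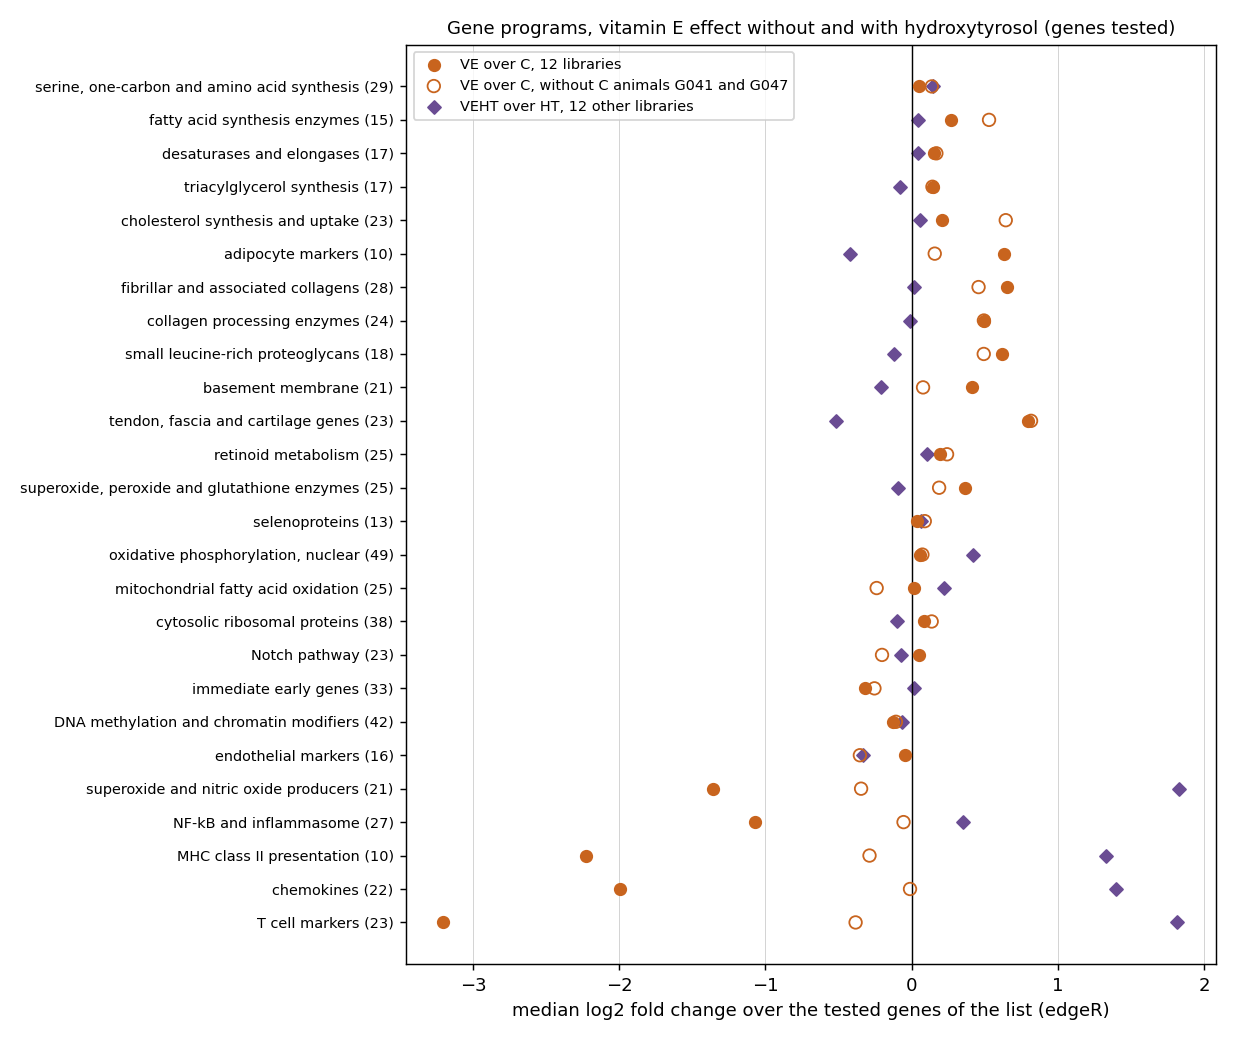
Median log2 fold change of 26 gene lists, with the number of tested genes in parentheses: VE over C in all 12 libraries (filled circles), VE over C without the C animals G041 and G047 (open circles), and VEHT over HT in the 12 libraries with hydroxytyrosol (diamonds). The T cell list stands at -0.38 without these 2 animals and at -3.20 with them. The tendon, collagen processing and proteoglycan lists stay above 0.4 and are at or below 0 for VEHT over HT. The basement membrane list stands at 0.08 without these 2 animals and at 0.41 with them.

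The same vitamin E doses were also compared in the presence of hydroxytyrosol, VEHT over HT, in libraries that VE and C do not share. Here the values are from a factorial fit of all 24 libraries, and the test of the difference is its interaction term. At an adjusted p of at most 0.1, edgeR gave an interaction for 696 of 17602 genes (3.95%). That count was 144 without C animal G041, 147 without C animal G047 and 0 without VEHT animal G141, a library rich in immune transcripts. It was also lower without single animals not so described, at 187 without HT animal G012, 195 without VE animal G077, 233 without VE animal G220 and 258 without HT animal G008. Of the 165 genes that DESeq2 called higher in VE, 56 had the same sign in VEHT over HT, with a median of -0.16, and 22 had an interaction. Of 712 called lower with a value, 39 had the same sign, with a median of 1.65, and 471 had an interaction. The 165 and 712 genes were chosen for their VE over C value, and that value is also part of the interaction term, so a smaller value elsewhere and the interaction counts are in part set by that choice and support nothing.

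Single genes differed in this respect. PSPH read 1.92 in VE over C and 0.22 in VEHT over HT (edgeR interaction, adjusted p = 0.121), and its mean was 27.8 CPM in VE, 9.49 CPM in VEHT, 8.15 CPM in HT and 7.33 CPM in C. SCD read 3.20 and 0.05 (adjusted p = 0.174, edgeR), a difference that did not pass. An interaction passed for FASN (1.51 in VE over C, -1.12 in VEHT over HT), ACACA (0.90 and -0.31), LPL (1.25 and -0.53), PCYT2 (0.72 and -0.15), OGN (1.41 and -0.36), ECM2 (1.04 and -0.46) and NOTCH1 (-0.54 and 0.15), at adjusted p between 0.0522 and 0.0957 by edgeR. Many of these genes were named for their VE over C value, which is part of that term, so passing is in part set by the choice. Without VEHT animal G141, 0 genes of the whole table passed. The VE over C value of FASN was 0.55 without VE animal G127. SLC30A2, a zinc exporter, had like values in both settings, 3.03 and 2.74 (interaction adjusted p = 0.936, edgeR), with 0.359 to 7.12 CPM in VE and 0.139 to 0.755 CPM in C. MYH9 read -0.65 in VE over C and -0.40 in VEHT over HT (interaction adjusted p = 0.772, edgeR). A p above the threshold does not show that the vitamin E difference was alike in both settings.

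**Figure D4:**
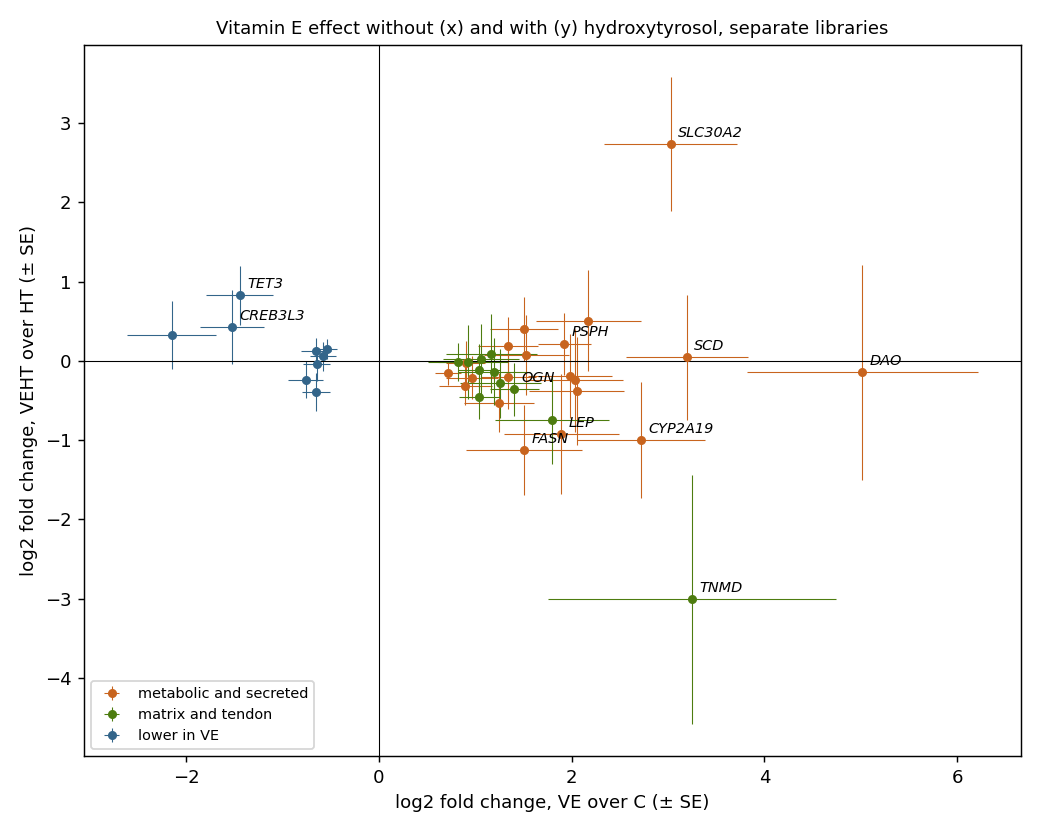
Log2 fold change of VE over C (horizontal axis, 12 libraries) against VEHT over HT (vertical axis, 24-library factorial fit) for 40 named genes, 20 metabolic, 11 matrix and 9 lower in VE, with bars for the standard error. The genes spread over both signs on the vertical axis, where SLC30A2 stands highest, at 2.74 (3.03 on the horizontal axis), and TNMD lowest, at -3.01 (3.25).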

How the data were processed

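RNA of 24 adipose samples was sequenced as paired reads. In the study's methods, reads were trimmed with Trim Galore, mapped to Sscrofa11.1 with HISAT and counted per Ensembl gene with HTSeq. The authors deposited raw counts, with no normalization. The annotation release and the strand setting are not given in the sources used here, so reads of overlapping or antisense genes cannot be told apart. Reads in no gene (9.38% to 15.9% of a library of the 12), ambiguous (1.48% to 2.74%), of low quality (1.26% to 1.83%), not aligned (1.59% to 2.38%) or aligned more than once (2.41% to 4.93%) did not enter the library sizes or the tests.

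Of 25880 gene identifiers, 14895 had a symbol, 14857 of them from a gene name table and 38 from names in the study's tables. Genes with 0 counts in 9 or more of the 12 VE and C libraries were dropped, which left 17532 genes. Counts were scaled by TMM and tested with edgeR 4.0.16 (quasi-likelihood F test, R 4.3.3), with Benjamini-Hochberg adjustment over all genes. The study's thresholds were kept, so called means an adjusted p no higher than 0.1 with a change of 1.5-fold or more. DESeq2 1.42.0, which the study used, and limma 3.58.1 were alternatives, as were other scalings and filters, a muscle marker covariate and leaving out libraries. DESeq2 without G041 and G047, and with each library left out, was added after seeing the data. CPM are counts scaled to the TMM-adjusted library size. Fits were tested on simulated data. Gene counts of the 12 libraries summed to between 36614639 and 61919211, and values under 1 CPM rest on few reads. Promoter windows and mRNA lengths came from RefSeq annotation of Sscrofa11.1.

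The members and the 74 gene lists (1634 tested genes) were chosen with earlier results of these data known. Named genes were the 15 with the smallest edgeR p per direction at a mean of at least 0.5 CPM, the 10 largest DESeq2 fold changes per direction among called genes, up to 4 members with the smallest p and the defining members of each list, genes the study names for this comparison, and the 10 with the smallest p per direction without G041 and G047. The partner genes PSAT1, SHMT2, PYCR1, ASPN, COL1A1 and TNMD fall outside this rule and were named after their values were seen.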

Additional observations from a re-analysis of the deposited data

Results flagged for a closer look

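In 17 of 230 groups tested (7.39%), over 115 genes, the highest or lowest of the 6 animals lay far from the others for the range of its group. Chance flags about 1 in 20 such groups. Single animals recurred among them. VE animal G127 was far above the rest for FASN (2719 CPM), ACACA (218.7 CPM) and the near-absent VPREB1 (0.0606 CPM). C animal G025 was far below the rest for COL1A1 (1800 CPM), COL1A2 (1289 CPM), COL3A1 (1562 CPM) and PCOLCE (201.4 CPM). VE animal G179 was low for SERPINH1 (592.5 CPM) and DPT (142.1 CPM). VE animal G085 was low for THRSP (451.2 CPM) and CYP2A19 (7.04 CPM) and high for RUNDC3A (0.867 CPM). C animal G206 was high for ECM2 (318.8 CPM) and MYH9 (642.9 CPM). The others were PHGDH, high in VE animal G220 (39.7 CPM), PSPH, low in C animal G041 (3.21 CPM), and PANK3, high in C animal G047 (185.9 CPM).

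In 36 of the 115 genes the vitamin E difference itself differed between feeds without and with hydroxytyrosol, at an adjusted p of at most 0.1 for edgeR's interaction term. Over all genes the count was 696 of 17602 (3.95%). Many of the 115 genes were chosen for their VE over C value, which is part of the interaction term, so the number among them is in part set by that choice. The values are log2 differences, VEHT over HT minus VE over C. Among lipid genes, they were -2.62 for FASN, -1.21 for ACACA, -0.87 for PCYT2 and -1.78 for LPL. Matrix, signalling and other genes higher in VE than in C gave -1.77 for OGN, -1.50 for ECM2, -2.17 for COL4A5, -1.59 for WNT5B, -1.49 for JAZF1, -1.05 for PIK3R1, -1.72 for RNF180 and -3.72 for CYP2A19. Among genes lower in VE than in C outside the immune lists, they were 0.69 for NOTCH1, 1.91 for RUNDC3A, 2.27 for TET3, 2.48 for CUX2, 5.98 for ANKRD66, 7.27 for STRA6, 5.79 for EGR2, 3.01 for JUNB and 15.34 for HPS5.

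Most of the largest values were of genes of immune cells, oxidant production and secreted phospholipases, with 6.94 for FLT3, 14.43 for CCL22, 13.01 for CCL17, 14.63 for XDH, 12.35 for ARG1, 17.41 for IL23R, 11.85 for VPREB1, 11.80 for SLAMF8, 13.92 for PLA2G2D and 14.67 for PLA2G2F. Innate receptors and effectors gave 6.03 for TLR2, 3.08 for TLR4, 4.46 for TLR8, 5.39 for CASP1 and 4.04 for TNF. No gene of the whole table passed without VEHT animal G141 alone (0 of the 696 counted with it), and 144 did without C animal G041 and 147 without C animal G047. Values of genes at or near 0 in a group depend on the prior count of the fit.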

How the results depend on the processing

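No paired analysis was possible because the count columns carry animal numbers and not the replicate numbers of the labels, and VE and C animals came from different litters. The count of 0 called genes was kept under every edgeR and limma setting with all 12 libraries, with a smallest adjusted p of 0.11 (edgeR, robust fit) to 0.238 (limma voom), and without G041 and G047 together (0.298, edgeR). With single animals left out, edgeR called 0 to 1 genes, and PSPH was called without G041. DESeq2 called 878 genes, 153 without G041 and G047 (an alternative chosen after seeing the data) and 80 to 1336 with single animals left out. The 585 genes higher in VE at the unadjusted level became 415 to 834 with single animals left out, and stayed within 1.5 times under each other setting. The 1538 lower genes became 800 under limma voom, 767 without G041 and G047, 906 with the skeletal muscle markers as a covariate, and 979 to 1978 with single animals left out. Counts without overlap were 135 above and 182 below without G041 and G047, and 65 to 151 above and 60 to 102 below with single animals left out, which by construction are easier to separate. The 696 interactions became 1255 by DESeq2, 0 without G041, G047 and G141 together, and 0 to 1095 with single animals left out.

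Of 459 log2 fold changes of 115 genes under other settings, 8 changed sign, in each case without G041 and G047: LIPE -0.12, STRA6 0.15, ARG1 0.51, CCL17 1.33, TLR2 0.26, TLR6 0.44, CASP1 0.41 and TNF 0.082. None of 1380 values with single animals left out changed sign (0 of 1380). Genes under 1 CPM, such as DAO, rest on few reads.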
